A study of Mus musculus with 10 samples.

Results

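Collagens, laminins and nidogens are the chains of the fibrils and the basement membranes of a tissue, and 57 of the 54532 genes in the table belong to these families. The members were all protein-coding genes with a symbol of the form Col followed by a type and a chain number, Lam followed by a, b or c and a number, or Nid1 or Nid2. This rule uses symbols and no expression value, although the families themselves were picked with earlier results of these data known. They comprise 44 collagen genes, 11 laminin genes and 2 nidogen genes, of which 19 encode basement membrane components and 11 encode fibrillar collagens. RNA from whole spleen was sequenced with 1 library per mouse from 5 DUSP6 KO mice (Dusp6tm1Jmol, a germline knockout that the labels call a knockdown) and 5 WT C57BL/6J mice, all of 8 to 12 weeks of age. All 10 mice, both groups alike, carried KRN serum-induced arthritis (KSIA), which was started with 100 µL of pooled serum of arthritic KRN x NOD mice given intraperitoneally on days 0 and 2, and the spleens were taken at day 9. No spleen of a mouse without arthritis was analysed here, so the genotypes are compared during arthritis only. The paper lists DUSP6 KO and C57BL/6J mice as separately purchased strains, and it reports milder arthritis in DUSP6 KO mice. Loss of Dusp6, strain or colony, and arthritis severity cannot be told apart in this comparison. The labels name male and female mice, and all 10 libraries were from males by the Y-linked Ddx3y, at 14.4 FPKM or more, and Xist, at 0.0206 FPKM or less.

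Fibrillar collagens such as types I, III and V assemble into the fibres that carry load in capsules, trabeculae and reticular networks. Basement membranes are sheets in which a network of type IV collagen and a network of laminin are joined by nidogens, and they underlie endothelium and surround mural and epithelial cells. In the spleen, reticular cells and the endothelium of the sinuses and of the central arteries lay down such material, and ERK signalling, which the phosphatase DUSP6 restrains, is active in these cells as in many others.

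The 2 main chains of type IV collagen, Col4a1 and Col4a2, are encoded head to head on chromosome 8. Col4a1 (ENSMUSG00000031502) lies on the minus strand at chr8:11198423-11312826 and Col4a2 (ENSMUSG00000031503) on the plus strand at chr8:11312805-11449287, and their first exons share 22 bases. These 22 bases are shown because both genes, whose levels kept a nearly fixed ratio over the libraries, start in them. The next sequences are stretches before the RefSeq start, outside any annotated exon, of Nid1 (ENSMUSG00000005397), which joins the laminin and type IV networks, of Col13a1 (ENSMUSG00000058806), the member with the lowest log2 fold change, and of Col1a2 (ENSMUSG00000029661), a fibrillar chain. The stretch of Col1a2 lies inside the gene as the table places it (chr6:4504814-4541544), in an intron of the transcript that starts first. All are RefSeq sequences of GRCm38.p6, written 5′ to 3′ on the strand of the gene, and the capitals mark matches on either strand to 5 short motifs. The GC box was searched as GGGCGG. The box named for its letters was searched as CCAAT, and the TATA box as TATAAA. The site of the AP-1 factors was searched as TGANTCA, with N for any base. The core of ETS factor sites was searched as CCGGAA.
Shared first bases of Col4a1 and Col4a2, chr8:11312805-11312826, plus strand: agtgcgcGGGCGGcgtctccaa
Nid1, chr13:13437352-13437550, plus strand: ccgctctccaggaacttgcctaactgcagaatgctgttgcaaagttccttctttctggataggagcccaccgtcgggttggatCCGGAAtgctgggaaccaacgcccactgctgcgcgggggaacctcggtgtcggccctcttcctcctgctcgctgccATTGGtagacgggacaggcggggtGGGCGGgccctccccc
Col13a1, chr10:61979109-61979358, minus strand: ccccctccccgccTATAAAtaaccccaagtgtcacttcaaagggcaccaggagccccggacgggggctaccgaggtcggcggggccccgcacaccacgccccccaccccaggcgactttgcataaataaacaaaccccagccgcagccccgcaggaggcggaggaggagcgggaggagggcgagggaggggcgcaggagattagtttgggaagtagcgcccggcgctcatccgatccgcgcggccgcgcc
Col1a2, chr6:4505370-4505492, plus strand: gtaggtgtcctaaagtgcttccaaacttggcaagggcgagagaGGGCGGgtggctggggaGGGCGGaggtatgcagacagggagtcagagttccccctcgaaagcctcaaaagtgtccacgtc
The shared bases of Col4a1 and Col4a2 held 1 GC box, the stretch before Nid1 held 1 GC box, 1 CCAAT box and 1 ETS core, that before Col13a1 held 1 TATA box, and that before Col1a2 held 2 GC boxes. Over the 250 bases before each RefSeq start, 41 of the 57 members had an entry, with 45 windows in all. GGGCGG was found in 25 of these 45 windows (55.6%) and in 32.7% of 32851 windows of all genes, with a median GC content of 59.2% and 52.4% in the same order. CCAAT was found in 33.3% of the member windows and 33.8% of all windows, TATAAA in 11.1% and 12.4%, TGANTCA in 2.22% and 6.75%, and CCGGAA in 2.22% and 12.03%. These are counts of letters in a window, and binding of a factor was not measured.

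As a check of the labels, Dusp6 (ENSMUSG00000019960, chr10:99263231-99267489) was at 0.428, 0.624, 0.458, 0.383 and 0.308 FPKM in the DUSP6 KO libraries and 19.4, 23.98, 19.4, 16.6 and 17.7 FPKM in the WT libraries, given throughout in the order of replicates 26, 21, 73, 01 and 03 for DUSP6 KO and 65, 67, 73, 77 and 83 for WT. FPKM is the number of fragments per unit of gene length and of library depth, so levels of different genes can be set side by side. Means are given ± SD over the 5 libraries of a group. Fold changes are differences of log2(FPKM + 0.1), DUSP6 KO minus WT, from limma, a scale that makes changes of scarce genes look smaller. Recovered reads numbered 14990474 to 19822673 per library, and the share of them held by all members together ran from 0.123 to 0.231% for DUSP6 KO and from 0.1199 to 0.158% for WT. Exocrine pancreas transcripts stood out in WT replicate 67, where 7 marker genes summed to 13766 FPKM and took 1.78% of the reads, and to a lesser degree in WT replicate 65 (164 FPKM), against 0.0612 to 0.452 FPKM in DUSP6 KO. Ccl21a, a chemokine of the T cell zone stroma, summed over the 2 genes of that name in the table, was at 14.6, 121, 7.64, 13.7 and 20.6 FPKM in the DUSP6 KO libraries and 11.7, 133.8, 23.3, 64.2 and 26.7 FPKM in the WT libraries. WT replicates 65 and 67 and DUSP6 KO replicate 21 thus stood apart from the rest, and results are also given without them.

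In limma, 15 of 21296 genes tested passed the adjusted threshold of 0.05 between DUSP6 KO and WT spleens. No collagen, laminin or nidogen gene was among them. With so few genes passing, this does not show that the members were unchanged. The spleens were sequenced whole, so fewer cells of a type and less RNA per cell cannot be told apart. Of the 57 members, 42 had a mean of at least 0.1 FPKM and were tested, and 0 of them had an adjusted p of 0.05 or less in limma on FPKM or in limma voom on recovered reads, a threshold that 0.0704% of all 21296 genes tested on FPKM passed. At an unadjusted p under 0.05, 4 members (Col4a1, Col4a2, Nid1 and Col14a1) were higher in DUSP6 KO, which is 9.52% of those tested, where 2.62% of all genes tested were. A single member, Col13a1, was lower at this threshold, which 3.03% of all genes tested passed in that direction. In no member were the 5 DUSP6 KO values all above or all below the 5 WT values, as was the case for 0.549% of all genes tested in the higher and 0.563% in the lower direction. The log2 fold change was above 0 for 25 of the 42 (59.5%), with a median of 0.11, against 49.0% and a median of -0.0046 over all genes tested. This count of 5 depended on the libraries, and there were 8 without DUSP6 KO replicate 26, 9 without DUSP6 KO replicate 73, 3 without DUSP6 KO replicate 21 or WT replicate 73, 2 without DUSP6 KO replicate 01 or WT replicate 65, and 1 without WT replicate 67. There were 0 without both WT libraries that held pancreas transcripts (replicates 65 and 67), and 0 without DUSP6 KO replicate 21 and WT replicate 67, which had the highest Ccl21a. The share of all genes under this threshold was not computed for these fits. A shift particular to the members therefore cannot be told apart from a shift over all genes.

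**Figure D1:**
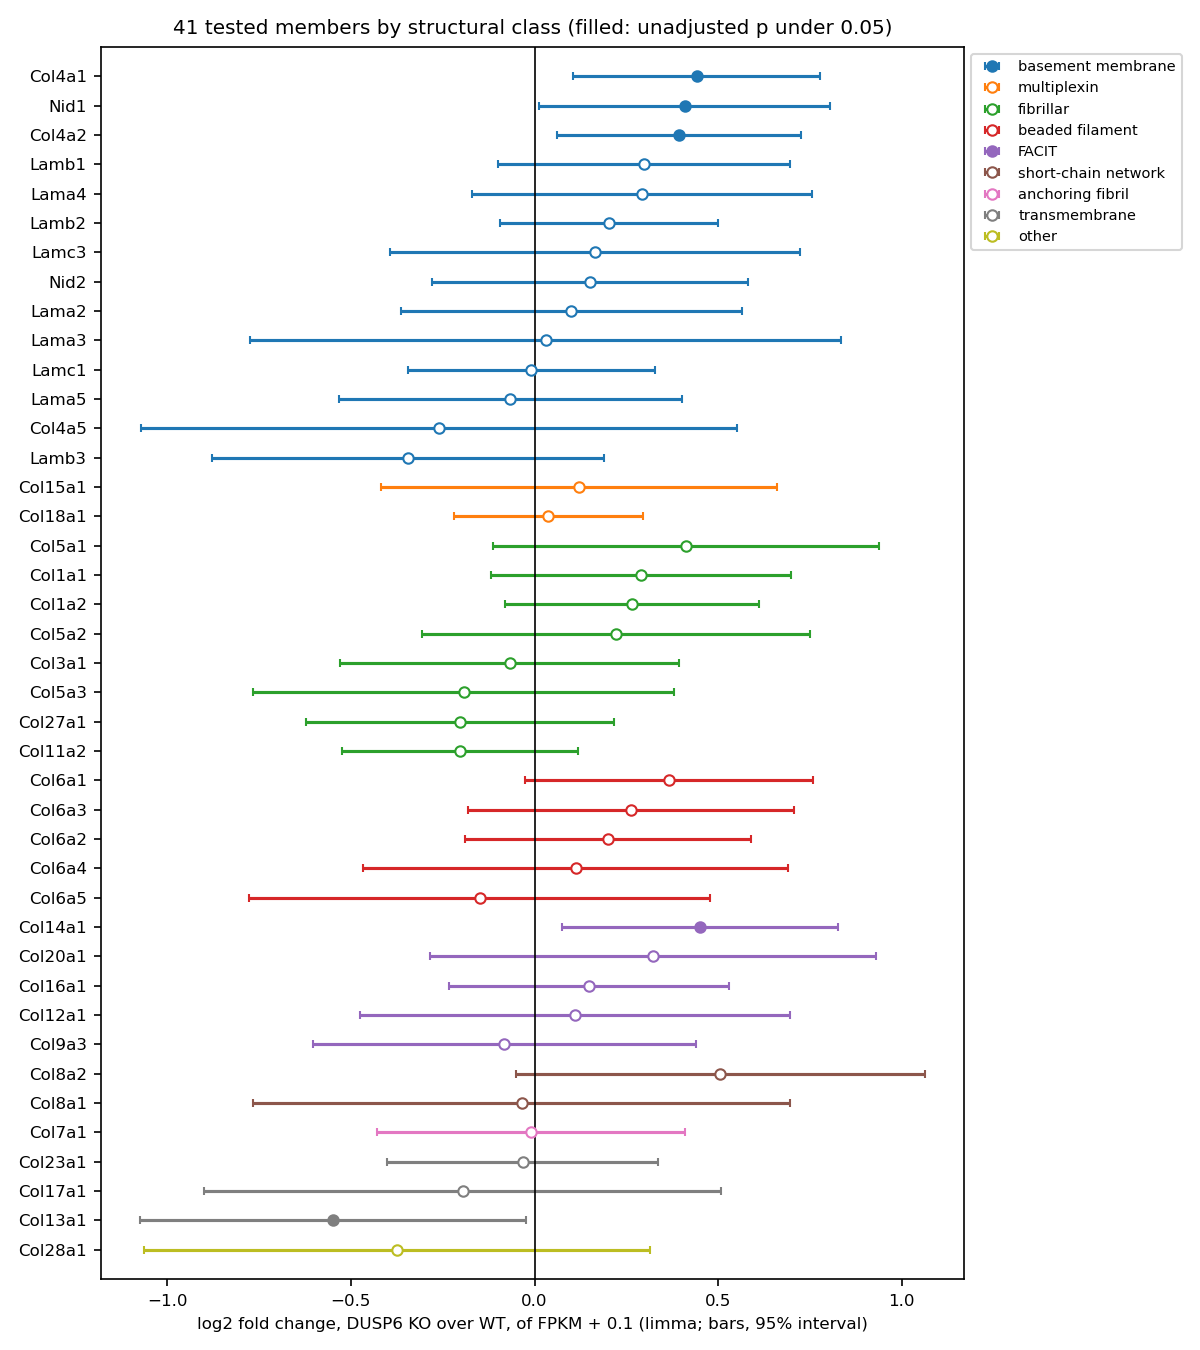
log2 fold change (DUSP6 KO over WT, of FPKM + 0.1) of 41 of the 42 tested members, grouped by structural class, with 95% intervals from limma; filled points have an unadjusted p under 0.05. The intervals of Col4a1, Nid1, Col4a2 and Col14a1 lie above 0 and that of Col13a1 below 0, and the other 36 drawn cross it.

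Col4a1 and Col4a2 were the most abundant basement membrane members, and the means of both were higher in DUSP6 KO. Col4a1, the alpha 1 chain, was at 22.7, 42.03, 30.7, 34.1 and 31.7 FPKM in the DUSP6 KO libraries and 24.2, 19.4, 25.6, 26.4 and 21.5 FPKM in the WT libraries. DUSP6 KO replicates 21, 73, 01 and 03 lay above every WT library and replicate 26 lay among the WT libraries. The means were 32.2 ± 6.95 FPKM in DUSP6 KO and 23.4 ± 2.93 in WT, a log2 fold change of 0.44 (95% interval 0.10 to 0.78) with an adjusted p of 0.75 in limma and an unadjusted one of 0.015. Col4a2, the alpha 2 chain that joins alpha 1 chains in the common trimer, was at 17.3, 32.9, 24.9, 26.98 and 23.99 FPKM in the DUSP6 KO libraries and 19.2, 17.2, 20.1, 20.9 and 16.7 FPKM in the WT libraries. The same 4 DUSP6 KO libraries were above every WT library. Its log2 fold change was 0.39 (0.062 to 0.73) with an adjusted p of 0.79 in limma and an unadjusted one of 0.024. In the two-sided exact permutation test of the mean FPKM, in which 5 against 5 libraries can reach 0.0079, p was 0.032 for each chain before any adjustment. The limma p of Col4a1 stayed under 0.05 whichever single library was left out, at 0.0012 to 0.038, and was 0.071 without WT replicates 65 and 67 and 0.072 without DUSP6 KO replicate 21 and WT replicate 67. For Col4a2 it was 0.055 without DUSP6 KO replicate 21, 0.054 without replicate 01, 0.053 without WT replicate 67 and 0.058 without WT replicate 83.

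The level of Col4a1 over that of Col4a2 was nearly fixed, at 1.31, 1.28, 1.23, 1.26 and 1.32 in the DUSP6 KO libraries and 1.26, 1.13, 1.27, 1.26 and 1.29 in the WT libraries, with a coefficient of variation of 2.87% in DUSP6 KO and 5.26% in WT. WT replicate 67 was the lowest of the 10 and the other 9 lay between 1.23 and 1.32. The 22 bases that the 2 first exons share are 0.29% of the exon length of Col4a1 and 0.33% of that of Col4a2. How reads over that stretch were counted is not given in the sources used here. The remaining type IV chains, which form the networks of kidney, lung and other epithelia, were scarce. Col4a5 averaged 0.629 ± 0.304 FPKM in DUSP6 KO and 0.7002 ± 0.166 in WT (log2 fold change -0.26, interval -1.07 to 0.55), and Col4a3, Col4a4 and Col4a6 stayed under the filter, Col4a6 with a mean of 0.0944 FPKM being nearest to it from below.

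Nid1, which binds laminin and type IV collagen to each other, was at 12.7, 26.6, 16.2, 18.4 and 17.8 FPKM in the DUSP6 KO libraries and 13.6, 10.2, 14.7, 14.6 and 14.4 FPKM in the WT libraries (locus chr13:13437551-13512269). Again 4 DUSP6 KO libraries were above all WT libraries, and WT replicate 67 was the lowest of the 10. The log2 fold change was 0.41 (0.012 to 0.81), with a limma p of 0.045 and an adjusted p of 0.86, and the two-sided exact permutation p was 0.063. This gene lost the unadjusted threshold without any of DUSP6 KO replicates 21, 01 and 03 or any of the 5 WT libraries, where the limma p ran from 0.051 to 0.11. It also lost it with limma voom (limma p 0.057), quantile normalization (0.053) and array weights (0.065), and without either pair of libraries that stood apart (0.19 for both), which with the single libraries makes 13 of 21 alternatives. Nid2, the paralogue with a similar role, was at 1.72, 2.94, 2.53, 2.33 and 2.69 FPKM in the DUSP6 KO libraries and 1.67, 2.13, 2.196, 3.22 and 1.84 FPKM in the WT libraries, overlapping throughout, with a log2 fold change of 0.15 (interval -0.28 to 0.58).

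**Figure D2:**
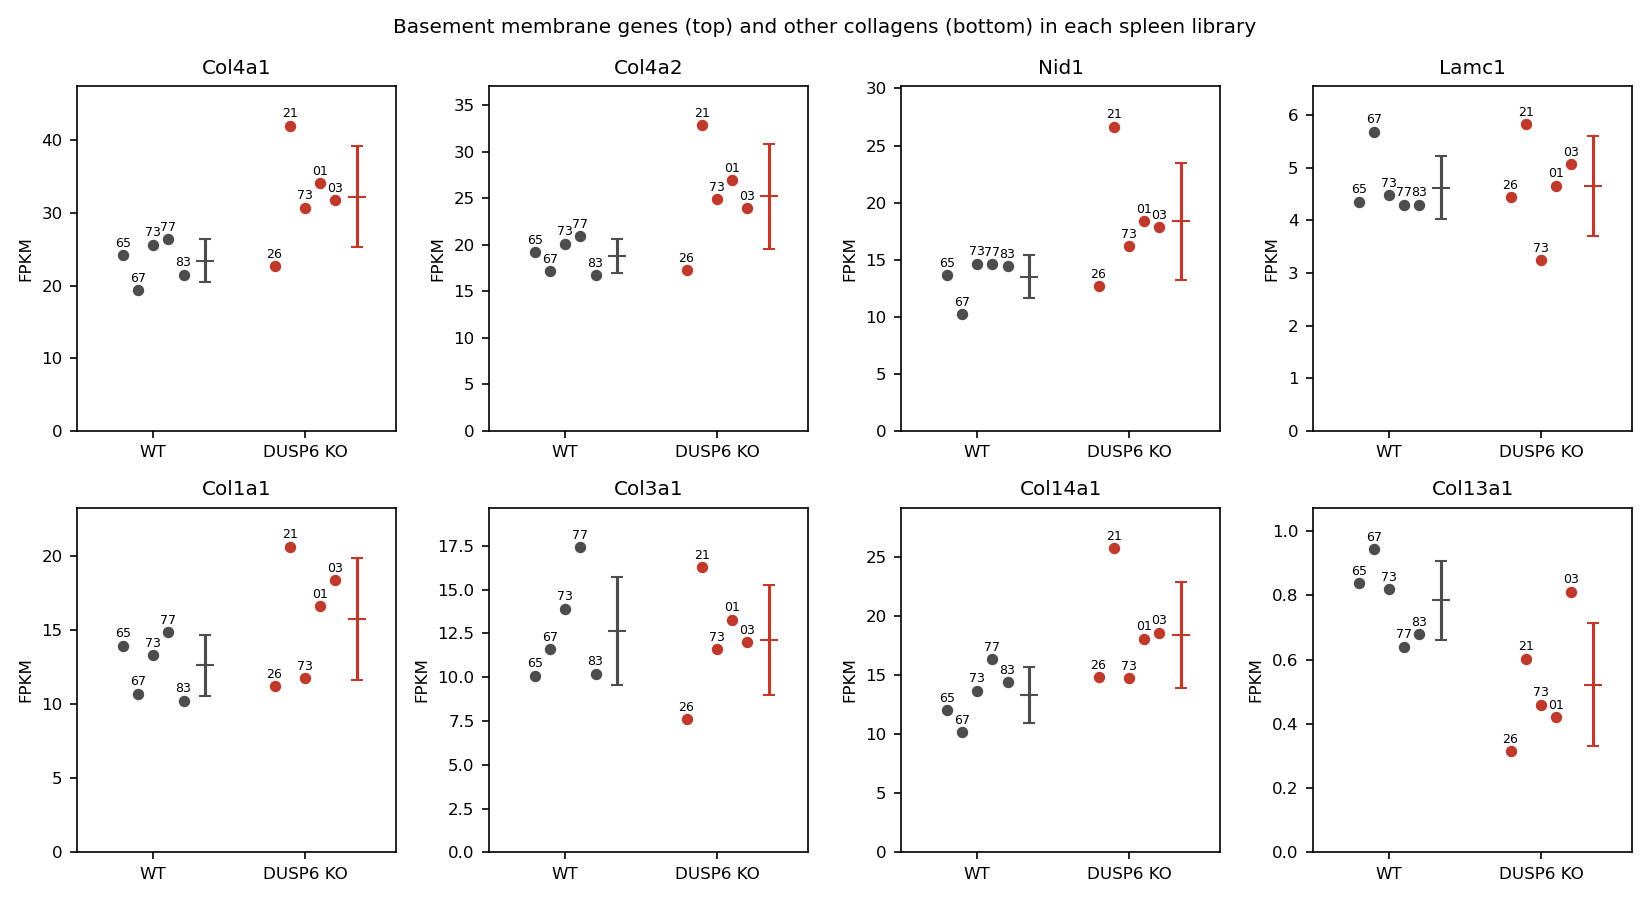
FPKM of 4 basement membrane genes (top) and 4 other collagens (bottom) in each library, labelled by replicate number, with the mean and SD of the 5 libraries beside the points. For Col4a1, Col4a2 and Nid1 the libraries of DUSP6 KO replicates 21, 73, 01 and 03 are above every WT library, while Lamc1 and Col3a1 overlap throughout.

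No gene of the laminins, which are trimers of an alpha, a beta and a gamma chain, passed the adjusted threshold. Of all genes tested 0.0704% passed it. Of the 11 laminin genes 10 were tested, 6 (60%) with a log2 fold change above 0, against 49.0% of all genes tested. At an unadjusted p under 0.05, 0 laminin genes were higher or lower, against 2.62% and 3.03% of all genes tested. Lamb2, the beta 2 chain of vascular basement membranes, was at 7.29, 11.2, 6.59, 8.17 and 9.29 FPKM in the DUSP6 KO libraries and 7.04, 6.59, 7.26, 7.67 and 7.73 FPKM in the WT libraries. Here 3 DUSP6 KO libraries were above the WT range and 1 was level with its lowest value, and the log2 fold change was 0.20 (-0.094 to 0.50). Lamc1, the gamma 1 chain present in most laminins, was at 4.44, 5.83, 3.24, 4.66 and 5.06 FPKM in the DUSP6 KO libraries and 4.36, 5.69, 4.48, 4.297 and 4.297 FPKM in the WT libraries. The lowest value of the 10 was that of DUSP6 KO replicate 73, and the highest were those of DUSP6 KO replicate 21 and WT replicate 67. Its log2 fold change was -0.009 with an interval of -0.34 to 0.33. Lamb1, the beta 1 chain, was less abundant at 0.686, 0.892, 0.743, 0.842 and 0.887 FPKM in the DUSP6 KO libraries and 0.513, 0.681, 0.526, 0.837 and 0.675 FPKM in the WT libraries. Its means were 0.8103 ± 0.0916 FPKM in DUSP6 KO and 0.647 ± 0.133 in WT, a log2 fold change of 0.30 (-0.10 to 0.70). The limma p was 0.13 unadjusted and 0.94 adjusted, and the unadjusted two-sided exact permutation p was 0.04.

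The laminin alpha chains, which carry the sites for integrins and dystroglycan, were all scarce. The 5 alpha genes summed to 2.57 ± 0.514 FPKM in DUSP6 KO and 2.36 ± 0.1596 in WT. The beta genes summed to 10.3 ± 2.06 FPKM in DUSP6 KO and 9.24 ± 0.378 in WT, and the gamma genes to 5.38 ± 0.982 FPKM in DUSP6 KO and 5.395 ± 0.744 in WT. Lama5 averaged 1.03 ± 0.294 FPKM in DUSP6 KO and 1.058 ± 0.132 in WT. Lama2, the main alpha chain of muscle, averaged 0.6197 ± 0.105 FPKM in DUSP6 KO and 0.579 ± 0.145 in WT. Lama4, with Lama5 an alpha chain of endothelial laminin, averaged 0.595 ± 0.135 FPKM in DUSP6 KO and 0.466 ± 0.0948 in WT. Their log2 fold changes were -0.066 for Lama5, 0.10 for Lama2 and 0.29 for Lama4, each with an interval that included 0. Lama3, with a mean of 0.229 FPKM the tested member nearest to the filter, had a log2 fold change of 0.03 with an interval of -0.77 to 0.84. Lamb3, the beta chain of the epithelial laminin that also holds Lama3, averaged 1.005 ± 0.208 FPKM in DUSP6 KO and 1.33 ± 0.394 in WT. The ratio of Nid1 to Lamc1 was 2.86, 4.57, 4.99, 3.94 and 3.52 in the DUSP6 KO libraries and 3.13, 1.799, 3.27, 3.399 and 3.36 in the WT libraries, highest in DUSP6 KO replicates 73 and 21 and lowest in WT replicate 67, with overlapping groups.

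Fibrillar collagens were at 56.1 ± 10.95 FPKM in sum in DUSP6 KO and at 49.1 ± 8.21 FPKM in WT, and the groups overlapped. Of the 11 genes 8 were tested, 4 with a log2 fold change above 0 and 4 below, with a median of 0.077. Of all genes tested 49.0% were above 0. At an unadjusted p under 0.05, 0 fibrillar genes were higher or lower, against 2.62% and 3.03% of all genes tested. Col1a1, the alpha 1 chain of type I collagen, was at 11.2, 20.7, 11.8, 16.6 and 18.4 FPKM in the DUSP6 KO libraries and 13.96, 10.7, 13.3, 14.9 and 10.2 FPKM in the WT libraries. Here DUSP6 KO replicates 21, 01 and 03 exceeded every WT library while replicates 26 and 73 lay within the WT range. The log2 fold change was 0.29 (-0.12 to 0.70). Its partner Col1a2 was at 12.4, 20.6, 12.3, 16.2 and 19.5 FPKM in the DUSP6 KO libraries and 12.5, 12.3, 13.7, 15.6 and 12.1 FPKM in the WT libraries, with the same 3 libraries on top and a log2 fold change of 0.26 (-0.082 to 0.61). The ratio of Col1a1 to Col1a2 was 0.966 ± 0.0477 in DUSP6 KO and 0.953 ± 0.107 in WT.

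Col3a1, the chain of the reticular fibres of lymphoid organs, was at 7.59, 16.3, 11.6, 13.3 and 12.01 FPKM in the DUSP6 KO libraries and 10.1, 11.6, 13.9, 17.4 and 10.2 FPKM in the WT libraries. The highest of the 10 values was that of WT replicate 77 and the lowest that of DUSP6 KO replicate 26, and the log2 fold change was -0.068 (interval -0.53 to 0.39), with means of 12.1 ± 3.14 FPKM in DUSP6 KO and 12.6 ± 3.07 in WT. Per library the ratio of Col3a1 to Col1a1 was 0.675, 0.788, 0.984, 0.797 and 0.654 in the DUSP6 KO libraries and 0.723, 1.08, 1.04, 1.17 and 0.997 in the WT libraries. WT replicate 65 lay among the DUSP6 KO values and DUSP6 KO replicate 73 lay just under the 4 higher WT values, so the groups overlapped. Col5a1, which nucleates type I fibrils, was at 5.42, 5.03, 8.83, 7.05 and 5.39 FPKM in the DUSP6 KO libraries and 5.201, 3.17, 4.23, 7.81 and 3.91 FPKM in the WT libraries with a log2 fold change of 0.41 (-0.11 to 0.94), and Col5a2 had 0.22 (-0.31 to 0.75). Col11a2 and Col27a1, collagens best known from cartilage, both had log2 fold changes of -0.20, with means of 1.43 ± 0.216 FPKM in DUSP6 KO and 1.66 ± 0.206 in WT for Col11a2 and 1.15 ± 0.296 FPKM in DUSP6 KO and 1.31 ± 0.139 in WT for Col27a1. Fibrillar genes with an unadjusted p under 0.05 numbered 2 without DUSP6 KO replicate 26, 1 without DUSP6 KO replicate 73 and 1 without WT replicate 77. The share of all genes was not computed for these fits.

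Set beside each other, the 19 basement membrane genes summed to 70.8, 128.8, 89.2, 100.6 and 97.4 FPKM in the DUSP6 KO libraries and 75.9, 67.5, 79.97, 83.3 and 72.9 FPKM in the WT libraries. Col4a1, Col4a2 and Nid1 made up 75.5% of this sum, as Col1a1, Col1a2 and Col3a1 made up 78.3% of the fibrillar sum. The means were 97.4 ± 21.04 FPKM in DUSP6 KO and 75.9 ± 6.14 in WT, DUSP6 KO replicate 26 being within the WT range and the other 4 above it. Of the 15 basement membrane genes tested 10 (66.7%) had a log2 fold change above 0, against 49.0% of all genes tested, with a median of 0.15. At an unadjusted p under 0.05, 3 (20%) were higher and 0 lower, against 2.62% and 3.03% of all genes tested. This count of 3 fell to 1 without DUSP6 KO replicate 21, DUSP6 KO replicate 01, WT replicate 67 or WT replicate 83. It fell to 0 without WT replicates 65 and 67 or without DUSP6 KO replicate 21 and WT replicate 67. The share of all genes was not computed for these fits. The ratio of the basement membrane to the fibrillar sum was 1.71, 1.85, 1.81, 1.69 and 1.59 in the DUSP6 KO libraries and 1.599, 1.58, 1.57, 1.34 and 1.74 in the WT libraries. WT replicate 83 reached into the DUSP6 KO range and DUSP6 KO replicate 03 was below WT replicate 65, so the ratio did not separate the genotypes.

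**Figure D3:**
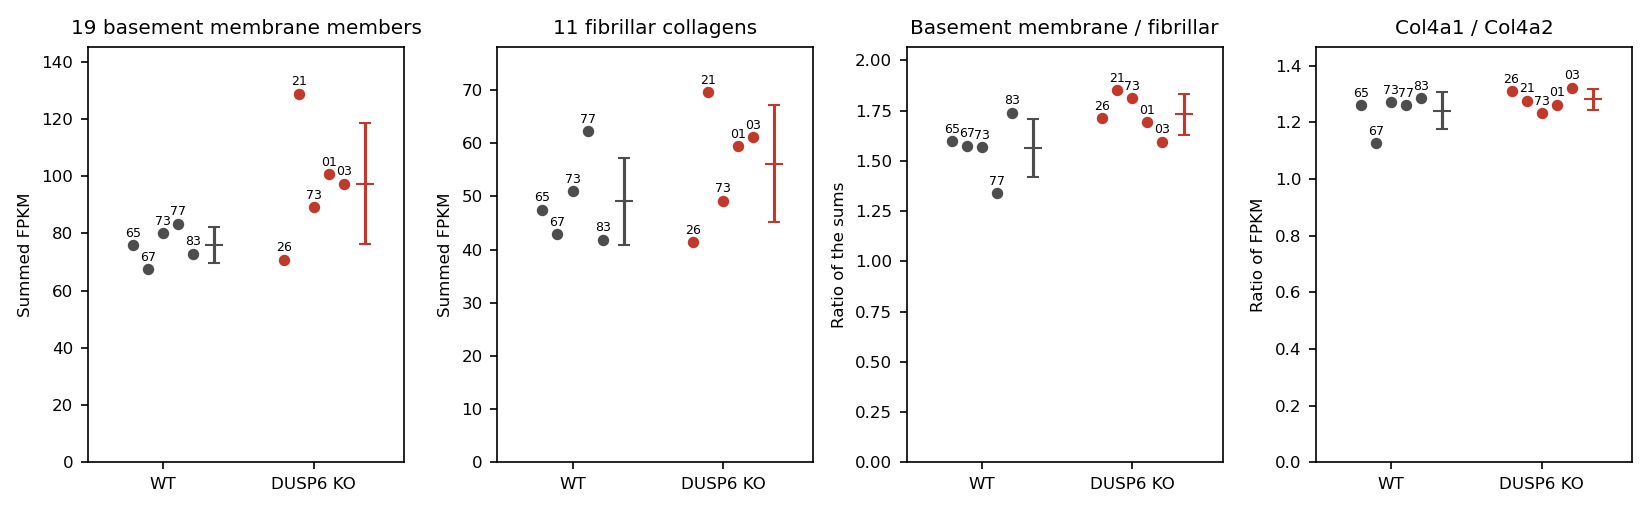
Summed FPKM of the 19 basement membrane members and the 11 fibrillar collagens, the ratio of the sums, and the ratio of Col4a1 to Col4a2 in each library, with the mean and SD of each group of 5. The basement membrane sum of DUSP6 KO replicate 26 is within the WT range and the other 4 are above it; the other 3 quantities overlap more widely.

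Type VI collagen, which forms beaded filaments next to basement membranes, had 5 of 6 genes tested. Of these, 4 (80%) had a log2 fold change above 0, against 49.0% of all genes tested. Col6a1 was at 4.91, 8.24, 6.06, 8.82 and 8.35 FPKM in the DUSP6 KO libraries and 4.91, 5.24, 4.98, 7.29 and 5.35 FPKM in the WT libraries, where DUSP6 KO replicates 21, 01 and 03 were above every WT library and replicate 26 was level with the lowest of them. The log2 fold change was 0.37 (-0.027 to 0.76), with a two-sided exact permutation p of 0.087 and an adjusted p of 0.92 in limma. Col6a2 and Col6a3, the other chains of the common trimer, had 0.20 (-0.19 to 0.59) and 0.26 (-0.18 to 0.71), and the ratio of Col6a1 to Col6a2 was 2.88 ± 0.384 in DUSP6 KO and 2.58 ± 0.4003 in WT.

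Col14a1 (ENSMUSG00000022371, chr15:55307750-55520803), which binds to the surface of type I fibrils, was the most abundant member of its class, the fibril-associated collagens. It was at 14.8, 25.8, 14.8, 18.1 and 18.6 FPKM in the DUSP6 KO libraries and 12.03, 10.2, 13.7, 16.3 and 14.4 FPKM in the WT libraries. Replicate 21 was far above the rest, 2 more DUSP6 KO libraries were above every WT library, and the remaining 2 lay within the WT range. The log2 fold change was 0.45 (0.074 to 0.83), with a limma p of 0.023, an adjusted p of 0.79 and a two-sided exact permutation p of 0.04. The limma p was 0.051 without WT replicate 65, 0.059 without WT replicate 67, 0.15 without both and 0.094 without DUSP6 KO replicate 21 and WT replicate 67. The other 4 tested genes of the class, Col16a1, Col12a1, Col20a1 and Col9a3, had log2 fold changes of 0.15, 0.11, 0.32 and -0.082 with intervals that included 0.

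Col13a1, a membrane-spanning collagen of cell adhesion sites, had its higher values in WT. It was at 0.314, 0.603, 0.459, 0.421 and 0.812 FPKM in the DUSP6 KO libraries and 0.838, 0.944, 0.818, 0.640 and 0.679 FPKM in the WT libraries, with 27 to 83 reads per library. Every DUSP6 KO library but replicate 03 was below the lowest WT value. The log2 fold change was -0.55 (-1.07 to -0.024), the limma p 0.042 (adjusted p 0.85) and the two-sided exact permutation p 0.032. Leaving out DUSP6 KO replicate 26, 73 or 01 or WT replicate 65, 67 or 73 gave a limma p from 0.074 to 0.098, and the fit without the filter on low genes gave 0.060. The gene is on chromosome 10, 37.3 Mb from Dusp6, as are 6 other members (Col6a1, Col6a2, Col18a1, Col10a1, Lama2 and Lama4) at 22.1 to 71.6 Mb. Col17a1, of hemidesmosomes, and Col23a1, the other transmembrane collagens tested, had log2 fold changes of -0.20 (-0.90 to 0.51) and -0.033 (-0.40 to 0.34).

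Among the remaining classes, Col18a1, a proteoglycan collagen of vascular basement membranes whose end fragment is endostatin, was at 5.54, 8.37, 6.34, 5.99 and 6.16 FPKM in the DUSP6 KO libraries and 6.01, 6.02, 7.23, 5.80 and 6.26 FPKM in the WT libraries. Apart from DUSP6 KO replicate 21 and WT replicate 73, the values lay close together, and the log2 fold change of 0.038 had the narrowest interval of the 42, -0.22 to 0.30. Its relative Col15a1 had 0.12 (-0.42 to 0.66). Col8a2, of the short-chain network collagens found beneath endothelium, was at 2.91, 5.49, 2.84, 4.38 and 4.36 FPKM in the DUSP6 KO libraries and 2.79, 1.88, 1.95, 3.48 and 3.99 FPKM in the WT libraries, with a log2 fold change of 0.51 (-0.051 to 1.06), an adjusted p of 0.92 in limma and overlapping groups. Col8a1 had -0.035 (-0.77 to 0.70), Col7a1, of anchoring fibrils, -0.0099 (-0.43 to 0.41), and Col28a1 -0.38 (-1.06 to 0.31). The 15 members under the filter had at most 35 reads in any library, and Col9a1 and Col24a1 had 2 reads in 1 library each.

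The members differed widely in level. Of the 25 with a mean of at least 1 FPKM 17 (68%) had a log2 fold change above 0 with a median of 0.20. Of the 17 tested below that level 8 (47.1%) did, with a median of -0.035. Over all genes tested the share was 49.0%, and it was not computed by level. DUSP6 KO replicate 21 had the highest of all 10 values in 21 of the 42 tested members, while DUSP6 KO replicate 26 was the lowest DUSP6 KO library in 20. WT replicate 67 was the lowest WT library in 13.

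**Figure D4:**
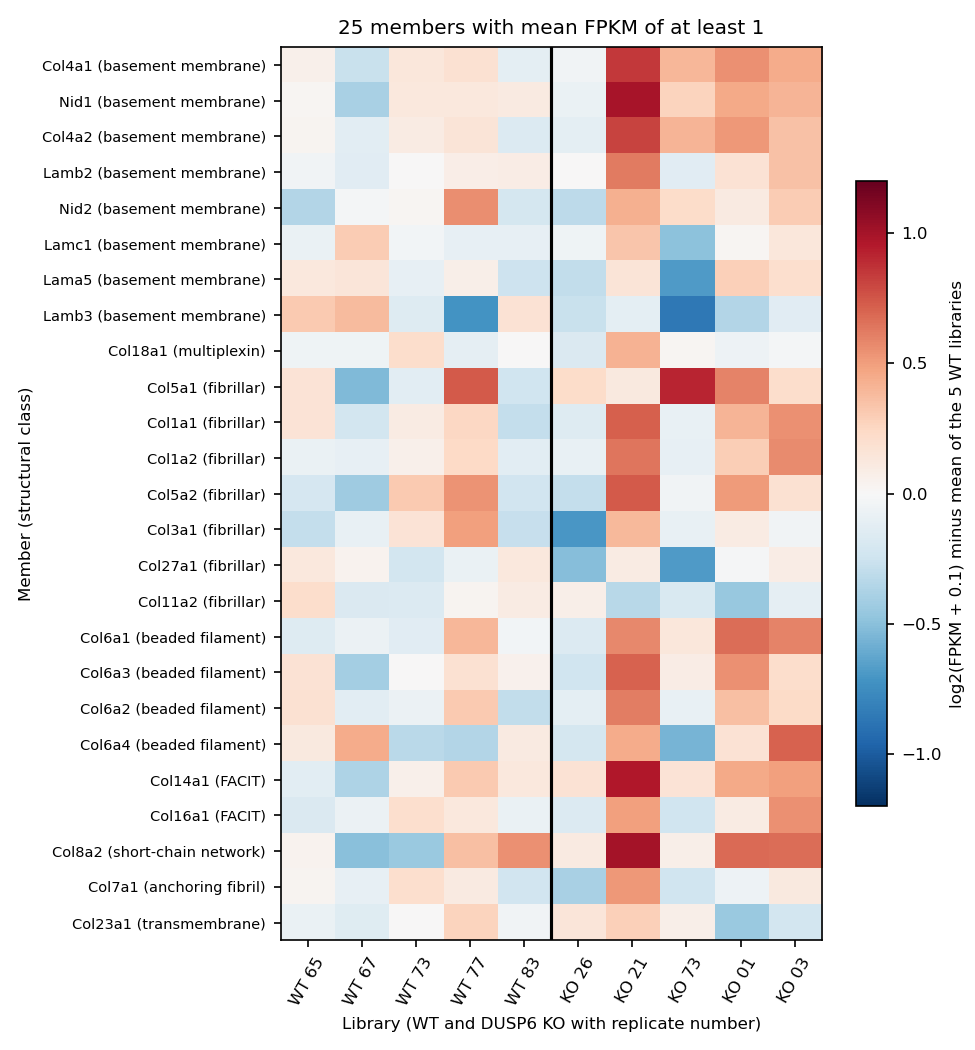
log2(FPKM + 0.1) minus the mean of the 5 WT libraries for the 25 members with a mean of at least 1 FPKM, in each library, from -0.86 to 0.998. DUSP6 KO replicate 21 is the reddest column and replicate 26 resembles the WT columns.

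Genes that act on these proteins were taken from 3 lists, and for those named the two-sided exact permutation p of the mean FPKM is unadjusted. No test over a list was run. Of all genes tested, 49.0% had a log2 fold change above 0, and 2.62% were higher and 3.03% lower at an unadjusted p under 0.05. Of 11 partners of the basement membrane, all tested, 10 (90.9%) had a log2 fold change above 0, with a median of 0.24. At an unadjusted p under 0.05, 0 were lower and 1 (9.09%) was higher. That gene was Sparc, a secreted protein that binds collagens including type IV, at 90.1, 111.4, 133.6, 155.7 and 145.4 FPKM in the DUSP6 KO libraries and 74.2, 73.04, 82.7, 80.2 and 66.6 FPKM in the WT libraries. All 5 DUSP6 KO values were above all 5 WT values, DUSP6 KO replicate 26 being the lowest of the 5. Its log2 fold change was 0.73 (exact permutation p = 0.0079, adjusted p = 0.25 in limma), and the adjusted p, 0.041 without replicate 26, ran from 0.041 to 0.63 over the 21 alternatives. The paper lists Sparc among the genes that were higher in DUSP6 KO after adjustment for multiple testing. It also reports cartilage development among the processes enriched in genes higher in DUSP6 KO, and names extracellular matrix among the enriched pathways. Which genes lay behind these terms was not examined. The paper's DESeq2 and enrichment tests were not repeated here. Agrn, which encodes the proteoglycan agrin, had a log2 fold change of 0.38 (exact permutation p = 0.071). Ntn4, which encodes a netrin that binds laminin gamma 1, had -0.36 (exact permutation p = 0.13). Ntn4 is on chromosome 10, 5.5 Mb from Dusp6, and the part of this position in its value was not tested.

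Of 29 genes for processing of collagen, 28 were tested, 16 (57.1%) with a log2 fold change above 0, against 49.0% of all genes tested. At an unadjusted p under 0.05, 2 (7.14%) were higher and 0 lower, against 2.62% and 3.03% of all genes tested. Bmp1, the proteinase that removes the C-terminal propeptide of fibrillar procollagens, was at 2.97, 3.44, 3.67, 3.19 and 3.04 FPKM in the DUSP6 KO libraries and 2.89, 2.102, 2.58, 2.74 and 2.67 FPKM in the WT libraries without overlap, with a log2 fold change of 0.32 (exact permutation p = 0.0079, adjusted p = 0.75 in limma). P3h3, a relative of the prolyl 3-hydroxylases, had 0.33 (exact permutation p = 0.04), and Plod3, which hydroxylates and glycosylates lysines of collagen, had -0.21 (exact permutation p = 0.079). All 16 receptor genes were tested, 9 (56.25%) with a log2 fold change above 0, 1 higher (6.25%) and 1 lower (6.25%) at the unadjusted threshold. Itga10, the alpha chain of a collagen-binding integrin, was at 0.372, 0.248, 0.263, 0.196 and 0.209 FPKM in the DUSP6 KO libraries and 0.665, 0.424, 0.548, 0.534 and 0.506 FPKM in the WT libraries, the WT values all above the DUSP6 KO values, with a log2 fold change of -0.84 (exact permutation p = 0.0079, adjusted p = 0.46 in limma). Mrc2, an endocytic receptor for collagen, was at 1.66, 2.304, 2.05, 2.60 and 2.19 FPKM in the DUSP6 KO libraries and 1.78, 0.934, 1.77, 1.34 and 1.33 FPKM in the WT libraries, with a log2 fold change of 0.58 (exact permutation p = 0.024, adjusted p = 0.69 in limma), and Itgb4, the beta chain of a laminin-binding integrin, had 0.56 (exact permutation p = 0.087).

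Markers of the cells that make these proteins were read from 3 lists. No marker in them passed the adjusted threshold in limma, which 0.0704% of all genes tested passed. Of all genes tested, 49.0% had a log2 fold change above 0, and 2.62% were higher and 3.03% lower at an unadjusted p under 0.05. All 4 genes of splenic stromal identity (Tlx1, Nkx2-5, Tcf21 and Nr2f2) had a log2 fold change above 0, Tcf21 and Tlx1 with an unadjusted p under 0.05 and Nkx2-5 and Nr2f2 without, and their sum ran from 47.9 to 80.3 FPKM for DUSP6 KO and from 34.95 to 46.3 FPKM for WT, without overlap. Tcf21, a transcription factor of splenic mesenchyme, had 0.67 (exact permutation p = 0.016) and Tlx1, which specifies the spleen, 0.58 (exact permutation p = 0.016), with adjusted p of 0.47 and 0.46. Of the 10 endothelial markers 7 were above 0, 2 of them with an unadjusted p under 0.05, with a median of 0.085, and the overlapping sum ran from 89.3 to 129.9 FPKM for DUSP6 KO and from 81.3 to 120.8 FPKM for WT. The 13 markers of reticular and mural cells, in 15 rows of the table, had 8 rows above 0 and 7 below, a median of 0.036 and an overlapping sum that ran from 260.4 to 636 FPKM for DUSP6 KO and from 320.4 to 498.9 FPKM for WT. In this list a single row, Pdgfrb, a receptor of mural and reticular cells, had an unadjusted p under 0.05, with a log2 fold change of 0.57 (exact permutation p = 0.016). None of these 3 lists had a gene under the filter. The part of these cells in the values above was not tested.

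Other cell types were also read from marker lists, beside 49.0% of all genes tested with a log2 fold change above 0. At an unadjusted p under 0.05, 2.62% of all genes tested were higher and 3.03% lower. White pulp markers had 2 of 6 genes above 0 and a sum that ran from 384.5 to 779.8 FPKM for DUSP6 KO and from 445.9 to 959.8 FPKM for WT, and red pulp macrophage markers 2 of 4 and a sum that ran from 443.1 to 788.3 FPKM for DUSP6 KO and from 494 to 639.2 FPKM for WT, so each library held the markers of spleen. The red pulp marker Adgre1 was at 46.8 ± 8.52 FPKM in DUSP6 KO and 35.6 ± 2.18 in WT, without overlap. Its unadjusted limma p was 0.0074 and its adjusted p 0.59. All 4 tested megakaryocyte markers were below 0, with a sum that ran from 209.5 to 297.4 FPKM for DUSP6 KO and from 198.8 to 468.3 FPKM for WT, and 1 more, Gp1bb, was under the filter. Of these 4, Pf4 and Itga2b each had an unadjusted limma p of 0.020 and an adjusted p of 0.77. Mesothelial markers of the capsule had 1 of 6 above 0 and a sum that ran from 2.62 to 4.99 FPKM for DUSP6 KO and from 3.69 to 13.9 FPKM for WT, highest in WT replicate 77, which also had the highest Col3a1. The scarce Krt19 was lower, with means of 0.0464 FPKM in DUSP6 KO and 0.401 in WT. Its unadjusted limma p was 0.043 and its adjusted p 0.86. Adipocyte markers summed to 27.0 FPKM in DUSP6 KO replicate 73 and 43.2 FPKM in WT replicate 67 and to at most 0.787 FPKM in the other 8, with Lep under the filter. The share of these cells in the members' values was not tested.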

How the data were processed

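The authors had poly-A RNA of each spleen sequenced with paired ends, used Hisat2 for alignment and featureCounts 1.5.0-p3 (named in the submitters' processing notes) for counting, and deposited FPKM values. The notes name hg38 as the build, but all 57 members have the coordinates of the mouse GENCODE release M21 (GRCm38). The protocol allows for directional and non-directional libraries and whether the counting used strand is not given in the sources used here. Exons of 18 members share bases with another gene, up to 8.45% of the exon length. Multiplying FPKM by gene length gave whole reads, within 0.001 of a read, for 100% of the values, and these recovered reads were used for depth and for limma voom. The study's DESeq2 test was not repeated.

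Genes whose mean reached 0.1 FPKM (21296) were compared with limma 3.58.1 in R 4.3.3 (eBayes with trend) on log2(FPKM + 0.1), 5 against 5, with Benjamini-Hochberg adjustment at 0.05. Two-sided exact permutation tests of the mean FPKM were run for single genes. P-values set the difference between the groups against the spread between the mice of a group. Replicates of a group differed by far more than sampling noise (chi-square per gene 14.7 to 169 over 20 pairs). The fit was also run on simulated data with a single dispersion and with changes larger than that of any member. That run does not bear on changes of the members' size. The values of 1 tested laminin gene are not reported here on their own. Plots were made in matplotlib 3.10.9 under Python 3.11.15. Named were Dusp6, every member with an unadjusted p under 0.05, the 3 most abundant members of each class, the chains in the ratios, the members nearest to the filter and the 3 genes with the lowest p in each of 3 partner lists. Other members and markers were named after their values were seen. Members and lists were chosen with earlier results of these data known. Alternatives were other pseudocounts, filters, normalizations, array weights, voom and leaving out each library, and the removal of 2 pairs of libraries was added after seeing the data.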

Additional observations from a re-analysis of the deposited data

Results flagged for a closer look

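Of 124 groups of 5 libraries behind the named genes, sums and ratios, 16 held a value far from the other 4 by Dixon's rule. Chance alone gives such a value in about 1 in 20 independent groups, but these groups share genes and are not independent. Of the 16, 9 were in WT replicate 67, several of them resting on the same values of Lamc1 and Nid1. In that library Nid1 was at 10.2 FPKM against 13.6 to 14.7 FPKM in the other WT libraries, and Lamc1 at 5.69 FPKM against 4.30 to 4.48 FPKM. The laminin gamma genes summed to 6.72 FPKM there, the ratio of Nid1 to Lamc1 was 1.80, that of Lamb2 to Lamc1 was 1.16 and that of Col4a1 to Col4a2 was 1.13, against 1.26 to 1.29 for the last in the other 4. The same library held exocrine pancreas markers at 13766 FPKM and adipocyte markers at 43.2 FPKM, and had 18422147 reads against at most 16348136. In DUSP6 KO replicate 21, Col18a1 was at 8.37 FPKM against 5.54 to 6.34 FPKM in the other 4 and Ccl21a at 121 FPKM against 7.64 to 20.6 FPKM. In DUSP6 KO replicate 73, Col28a1 was at 0.0835 FPKM against 0.328 to 0.393 FPKM, from 6 reads, and adipocyte markers summed to 27.0 FPKM. WT replicate 77 had Col6a1 at 7.29 FPKM against 4.91 to 5.35 FPKM and mesothelium markers at 13.9 FPKM against 3.69 to 6.29 FPKM. Exocrine pancreas markers were at 0.452 FPKM in DUSP6 KO replicate 03, against 0.0612 to 0.120 FPKM in the other DUSP6 KO libraries.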

How the results depend on the processing

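Over 21 alternatives the number of members with an adjusted p of 0.05 or less was 0 each time in limma. With single libraries left out, the count of members with an unadjusted p under 0.05 ran from 1 to 9 in all, from 1 to 4 for the basement membrane and from 0 to 2 for fibrillar collagens. Without both WT libraries with pancreas transcripts, or without both libraries with the highest Ccl21a, alternatives added after seeing the data, the counts were 0 in all and 0 for the basement membrane. The share of all genes under the unadjusted threshold was not computed for the alternatives. The median log2 fold change of the basement membrane genes ran from 0.023 to 0.21 and that of the fibrillar genes from -0.060 to 0.22, the lowest both without the highest Ccl21a.

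Log2 fold changes near 0 changed sign. Lamc1 was at 0.0092 with median centring, 0.0031 with quantile normalization, 0.0014 after rescaling to leave out antigen receptor, haemoglobin and mitochondrial genes, 0.047 with array weights and 0.066 without the pancreas libraries. Col18a1 was at -0.039 with array weights and -0.070 without the highest Ccl21a, where Col12a1 was at -0.036 and Lama3 at -0.34. Lama3 was at -0.22 with array weights and -0.17 without the pancreas libraries. Col8a1 was at 0.040 with quantile normalization, 0.17 with array weights and 0.21 without the pancreas libraries. Col7a1 was at 0.00045 with a pseudocount of 1, 0.0082 with median centring and 0.028 with quantile normalization, where Col23a1 was at 0.0043. With single libraries left out, the ranges were -0.18 to 0.090 for Col3a1, -0.095 to 0.11 for Lamc1, -0.016 to 0.30 for Col15a1, -0.057 to 0.090 for Col18a1, -0.024 to 0.28 for Col12a1, -0.22 to 0.062 for Col8a1, -0.14 to 0.085 for Col7a1, -0.11 to 0.070 for Col23a1 and -0.20 to 0.17 for Lama3. The cause was not tested. The median of all genes stayed within -0.019 and 0.013. No paired analysis was possible because the groups share a single replicate number, which names an animal. Depth limits the 15 untested members, with at most 35 reads in a library.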
